A study of Mus musculus with 24 samples.

Results

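This comparison sets the ileum of mice that carry a mutant Apc allele against the cecum of wild-type (WT) mice, across all genes. Its members are 6 of the 24 RNA sequencing libraries of the series, chosen by their sample labels: 3 of Apc+/- ileum and 3 of WT cecum, which are 2 of the 8 groups. The ileum mice were untreated. The genotype entry of ileum replicates 1 and 3 reads Cdx2f/f::AhCreERT::ApcD14/+, but their description calls the Cdx2 allele non-floxed, and the entry of replicate 2 is ApcD14/+ alone. The cecum mice were WT and untreated. Age and strain are not given in the labels. Because every ileum library here is Apc+/- and every cecum library is WT, the effects of gut region and of the Apc genotype cannot be told apart in this contrast.

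A second contrast of ileum with cecum stands beside it. It uses 3 libraries of ileum and 3 of cecum that are all Cdx2-/- ; Apc+/- (Cdx2f/f::AhCreERT::ApcD14/+), from mice given tamoxifen and β-naphthoflavone, which switch on a CreERT recombinase under the Cyp1a1 (Ah) promoter. These groups, called Cdx2/Apc ileum and Cdx2/Apc cecum here, share their Apc genotype and treatment and share no library with the first contrast. The study asked how loss of the homeobox gene Cdx2 acts on tumour formation in the gut. RNA came from dissected tissue taken up in Trizol, so each library mixes epithelium with muscle, stroma, nerves and immune cells. Nothing in the labels says that replicates are separate animals, and p-values then measure only the spread between these samples.

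The ileum is the last stretch of the small intestine. Its enterocytes digest sugars and peptides at the brush border, take up lipids, and recover bile acids and vitamin B12, while Paneth cells at the crypt base release antimicrobial peptides beside the Wnt-dependent stem cells. The cecum is the first chamber of the large intestine, where colonocytes absorb water, salt and the short-chain fatty acids made by bacteria, and where villi and, normally, Paneth cells are lacking. Position along the gut is held by transcription factors, among them Gata4 of the proximal small intestine and the Hox genes, whose higher-numbered members mark more posterior segments. Apc restrains Wnt signalling by promoting the breakdown of β-catenin.

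The 6 libraries held between 42387817 and 71485860 reads in genes, and between 22529 and 24577 genes had a read. Levels are given as CPM, reads scaled to a common library total after TMM scaling, always in the order of replicates 1, 2 and 3. Fold changes are log2 values, ileum relative to cecum, ± SE from edgeR's quasi-likelihood F test on all 24 libraries, and a call means a p under 0.05 after Benjamini-Hochberg adjustment over all genes tested. On the first principal component of the 12 libraries of both contrasts (51.7% of the variance), the WT cecum libraries lay between -184.6 and -133.4 and the other 9 between 23.3 and 78.8. WT cecum replicate 3 lay nearest to the others, and ileum replicate 2 has a genotype entry of its own.

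Of 20502 genes tested, 11351 (55.4%) were called: 5770 (28.1%) higher and 5581 (27.2%) lower in the ileum. Of these, 4132 were at least 2-fold higher and 3478 at least 2-fold lower. The median log2 fold change over all genes tested was 0.03. As most genes were called, the counts for each gene group below are to be read against these shares.

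Apc itself had 122, 218 and 120 CPM in the ileum and 180, 206 and 181 CPM in the cecum. The groups overlapped, with ileum replicate 2 highest of all, and the change was not called (log2 -0.30 ± 0.18, adjusted p = 0.16 by edgeR). Without ileum replicate 2, the library with the genotype entry of its own, Apc was called lower, by 0.64 on the log2 scale (adjusted p = 0.00084 by edgeR), and without any other single library it was not called. The deposited counts are per gene, so they do not show whether a transcript came from the mutant allele. Cdx2, an intestinal homeobox factor (ENSMUSG00000029646), which lies on the minus strand of chromosome 5 from 147300805 to 147307270 in GRCm38, had 90.1, 63.3 and 112 CPM in the ileum and 623, 663 and 408 CPM in the cecum. All ileum libraries were below all cecum libraries (log2 -2.67 ± 0.50, adjusted p = 0.00017 by edgeR). Its paralog Cdx1 was also lower, by 2.68 ± 0.82 on the log2 scale.

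The largest changes were near on-off differences. Bpifb5, a member of the BPI-fold protein family, had 144, 98.7 and 143 CPM in the ileum and no read in any cecum library, which makes it at least 2063-fold higher, taking 3 reads per library as the floor. The bile-salt-stimulated sphingomyelinase gene Enpp7 had 52.9, 1.60 and 136 CPM in the ileum and none in the cecum (at least 1020-fold higher). The T-box factor gene T (Brachyury) had 52.9, 30.8 and 52.3 CPM against none (at least 728-fold higher). The ileum libraries were close to each other for Bpifb5 and T, but ileum replicate 2 held far less Enpp7 than the others. Of the 15 largest increases, 7 were α-defensin genes of Paneth cells (Defa3, Defa17, Defa20, Defa23, Defa24, Defa33 and Defa37). Defensin genes are near-identical and can exchange reads in counting, so the values of single members are uncertain.

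In the other direction, the water channel gene Aqp8 had 0, 0.037 and 0.309 CPM in the ileum and 4556, 3329 and 881 CPM in the cecum (log2 -14.53 ± 2.62, adjusted p = 0.00012 by edgeR). Carbonic anhydrase 1, Car1 (minus strand of chromosome 3 from 14766216 to 14808368 in GRCm38), had 0.119, 4.71 and 2.44 CPM against 26790, 23550 and 15030 CPM (log2 -13.13 ± 2.60). Cyp2c55, a large-intestinal cytochrome P450, had 0.647, 1.60 and 2.04 CPM against 8125, 11130 and 5986 CPM (log2 -12.52 ± 2.14). No library of the ileum reached a cecum level for any of these genes, and WT cecum replicate 3 was the lowest cecum library for each. Slc37a2, a sugar-phosphate exchanger, fell by 9.37 ± 0.71 on the log2 scale and Ces1g, a carboxylesterase, by 9.30 ± 0.65. The posterior homeobox gene Hoxa10 and the forkhead gene Foxd2 were also among the 15 largest decreases.

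The promoters of the largest changes with an entry in the RefSeq table are shown because they are the control regions nearest to the genes with the greatest regional contrast. Each line gives the 250 bases before the annotated start on the plus strand of GRCm38.p6, 5′ to 3′, for genes higher in the ileum (Bpifb5, chr2:154223492-154223741; Enpp7, chr11:118987931-118988180; T, chr17:8434173-8434422) and lower in it (Aqp8, chr7:123462044-123462293; Cyp2c55, chr19:39006769-39007018; Tex19.1, chr11:121145893-121146142). Capitals mark matches on either strand to 4 motifs. The CDX core was searched as TTTATNG. The letters used for GATA factors were AGATAA. The HNF4 motif was CAAAGTCCA, and that of HNF1 was its core GTTAAT.
Bpifb5: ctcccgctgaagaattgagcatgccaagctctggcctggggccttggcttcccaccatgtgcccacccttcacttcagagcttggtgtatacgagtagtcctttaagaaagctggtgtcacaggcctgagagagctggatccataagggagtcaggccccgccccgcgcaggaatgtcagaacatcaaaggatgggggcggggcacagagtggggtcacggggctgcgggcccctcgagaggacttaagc
Enpp7: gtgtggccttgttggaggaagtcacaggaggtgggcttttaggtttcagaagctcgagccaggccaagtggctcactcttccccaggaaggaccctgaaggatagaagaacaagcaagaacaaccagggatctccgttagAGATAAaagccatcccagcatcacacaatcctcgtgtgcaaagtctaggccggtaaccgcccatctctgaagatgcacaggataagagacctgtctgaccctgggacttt
T: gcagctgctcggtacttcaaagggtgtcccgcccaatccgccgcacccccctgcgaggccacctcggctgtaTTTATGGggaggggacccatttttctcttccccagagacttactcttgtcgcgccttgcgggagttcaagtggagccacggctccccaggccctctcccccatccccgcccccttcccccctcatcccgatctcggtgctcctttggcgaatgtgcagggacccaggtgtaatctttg
Aqp8: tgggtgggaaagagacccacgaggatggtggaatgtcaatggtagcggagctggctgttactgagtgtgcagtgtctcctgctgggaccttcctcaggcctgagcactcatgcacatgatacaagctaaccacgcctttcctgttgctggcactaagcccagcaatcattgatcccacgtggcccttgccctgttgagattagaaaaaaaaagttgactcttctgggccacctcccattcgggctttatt
Cyp2c55: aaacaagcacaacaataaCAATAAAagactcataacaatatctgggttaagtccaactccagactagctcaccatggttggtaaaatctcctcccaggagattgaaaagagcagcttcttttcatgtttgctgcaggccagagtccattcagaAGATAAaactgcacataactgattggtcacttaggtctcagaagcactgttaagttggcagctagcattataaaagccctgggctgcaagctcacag
Tex19.1: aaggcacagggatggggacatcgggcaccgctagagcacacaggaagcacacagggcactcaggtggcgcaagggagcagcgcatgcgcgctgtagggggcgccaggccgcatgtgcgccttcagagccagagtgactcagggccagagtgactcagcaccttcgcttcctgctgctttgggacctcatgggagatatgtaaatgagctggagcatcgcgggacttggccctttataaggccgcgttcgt
The Enpp7 promoter held AGATAA at bases 110 to 105 before the start, and that of T held TTTATNG at bases 178 to 172. The Cyp2c55 promoter held TTTATNG on the opposite strand at bases 232 to 226 and AGATAA at bases 97 to 92. None of these letters was found in the windows of Bpifb5, Aqp8 and Tex19.1. Of the 15 largest increases, 10 had a promoter in the table, and 5 of these held TTTATNG, 2 AGATAA, 2 GTTAAT and 0 CAAAGTCCA. Of the 15 largest decreases, 14 had one, and 3 held TTTATNG, 2 AGATAA, 3 GTTAAT and 0 CAAAGTCCA. Over all 27025 promoters of the table, 10.2% held TTTATNG, 10.3% AGATAA, 6.52% GTTAAT and 0.381% CAAAGTCCA. Several of the 15 largest increases were near-identical α-defensin genes, so matches in their promoters need not be independent. The counts were not tested against the shares over all promoters. A match is a run of letters and is not evidence that the factor binds there.

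**Figure D1:**
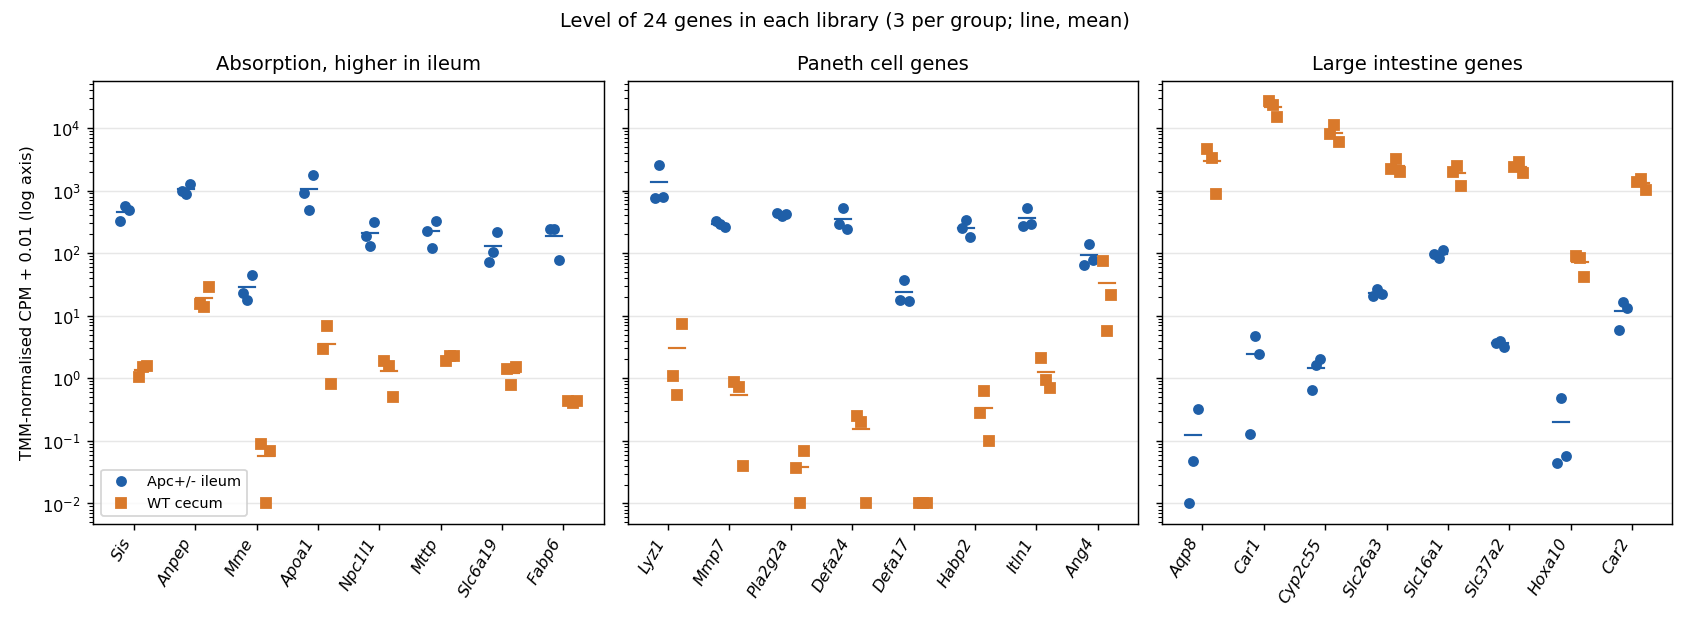
Level of 24 genes in each of the 6 libraries (CPM plus 0.01, log axis), 8 genes in each panel; points are single libraries and lines are means of 3. Except for Ang4, where both groups span overlapping values, the ileum points lie above the cecum points in the left and middle panels and below them in the right panel.

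Genes for terminal digestion were mostly higher in the ileum. Of 21 brush border hydrolases tested, 13 were higher, 1 was lower and 7 were not called, with a median log2 change of 3.19, against 28.1% higher over all genes. Sucrase-isomaltase, Sis, which splits sucrose and starch fragments, had 327, 556 and 485 CPM in the ileum and 1.03, 1.49 and 1.56 CPM in the cecum (log2 8.38 ± 1.97, adjusted p = 0.0014 by edgeR). Aminopeptidase N, Anpep, which trims peptides, had 965, 868 and 1285 CPM against 15.6, 13.7 and 28.3 CPM (log2 5.76 ± 1.08). Neither of these had any overlap between the groups. Lactase, Lct, was called higher as well, but its 2.23, 0.538 and 59.0 CPM show that most of its ileal reads came from replicate 3. The lower member was Mep1a, a meprin protease (64.3, 147 and 73.3 CPM against 879, 1321 and 818 CPM), whose call was lost without any single library but WT cecum replicate 3 (adjusted p of 0.0579 to 0.114 by edgeR). Its partner Mep1b had 334, 286 and 354 CPM against 223, 302 and 271 CPM and was not called. Leaving out 1 library at a time left between 9 and 12 hydrolases higher, and with ileum replicate 2 as the sole ileum library 7 were higher. In bulk tissue, a lower share of a cell type and less RNA per cell of that type cannot be told apart, here or in any group below.

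Of 25 lipid absorption genes tested, 15 were higher and 4 lower (Plin2, Cideb, Cd36 and Slc27a4), with a median of 1.91. Apoa1, the main protein of high-density lipoprotein, had 921, 491 and 1767 CPM in the ileum and 2.91, 6.80 and 0.787 CPM in the cecum (log2 8.25 ± 1.70). Mttp, which loads lipid onto apolipoprotein B, had 223, 120 and 327 CPM against 1.91, 2.28 and 2.29 CPM (log2 6.69 ± 0.95). Npc1l1, the cholesterol uptake protein, had 190, 128 and 319 CPM against 1.88, 1.55 and 0.490 CPM (log2 7.37 ± 1.33). Ileum replicate 2 was the lowest of the ileum libraries for each of these 3 genes and still lay far above the cecum. The cholesterol exporters Abcg5 and Abcg8 were 6.25 ± 0.87 and 7.13 ± 1.08 log2 units higher. The fatty acid binding proteins did not move together: Fabp1 was higher (log2 6.54 ± 1.52), while Fabp2 had 346, 181 and 575 CPM against 1721, 2037 and 867 CPM and was not called (adjusted p = 0.11 by edgeR).

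Of 23 carriers for sugars, amino acids and peptides, 16 were higher and 2 lower (Slc6a14 and Slc1a5), with a median of 2.53. The cystine and dibasic amino acid carrier Slc7a9 had 71.9, 64.1 and 86.7 CPM in the ileum against 0.609, 0.648 and 0.565 CPM in the cecum (log2 6.93 ± 1.13, adjusted p = 4.3e-05 by edgeR). The neutral amino acid carrier Slc6a19 had 72.4, 103 and 218 CPM against 1.40, 0.774 and 1.49 CPM (log2 6.74 ± 1.77). Both stood clear of the cecum in every library. The glucose carrier genes Slc2a2 and Slc2a7 had no read in any cecum library, whereas the sodium-glucose carrier Slc5a1, with 197, 174 and 439 CPM against 87.3, 84.0 and 96.2 CPM, was not called (adjusted p = 0.079 by edgeR). Of 17 carriers of vitamins, nucleosides and small anions, 9 were higher and 3 lower (Slc20a1, Slc23a2 and Slc13a2), with a median of 1.03.

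Bile acid handling, the task that sets the ileum apart from the rest of the small intestine, was less uniform. Of 12 genes for bile acid and vitamin B12 uptake, 3 were higher (Fabp6, Fgf15 and Abcc2), 1 was lower (Abcc3) and 8 were not called; the median was 0.02. Fabp6, the ileal bile acid binding protein, had 241, 244 and 78.4 CPM in the ileum and 0.424, 0.397 and 0.431 CPM in the cecum (log2 8.80 ± 2.26, adjusted p = 0.0029 by edgeR). Fgf15, the hormone through which the ileum restrains bile acid synthesis in the liver, had 4.78, 0.260 and 7.69 CPM against 0, 0.021 and 0 CPM (log2 8.90 ± 2.23). The apical bile acid carrier Slc10a2, by contrast, had 36.4, 92.0 and 18 CPM against 33.3, 63.4 and 71.8 CPM. Its groups overlapped and it was not called, nor were the basolateral carrier genes Slc51a and Slc51b or the vitamin B12 receptor genes Cubn and Amn. The exporter Abcc3 had 63.7, 63.8 and 64.9 CPM against 1194, 1060 and 718 CPM (log2 -3.95 ± 0.34).

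The structural genes of the brush border ran the other way from its enzymes. Of 18 microvillus genes tested, 11 were lower in the ileum and 2 higher (Fscn1 and Pdzk1), with a median of -1.72, against 27.2% lower over all genes. Cdhr2, a protocadherin that links microvillus tips, had 431, 452 and 689 CPM in the ileum and 2910, 3298 and 1639 CPM in the cecum (log2 -2.32 ± 0.64). Eps8, which caps actin at the tips, was 1.72 ± 0.27 log2 units lower, and Espn, an actin bundler, 2.84 ± 0.60 lower. Villin, Vil1, had 915, 844 and 1133 CPM against 2216, 2195 and 1288 CPM and was not called. Between 7 and 11 members were lower when single libraries were left out, with 7 without ileum replicate 2. In the second contrast 6 of the 18 were higher and 0 lower, with a median of 1.516, against 9.59% higher over all genes. Without Cdx2/Apc ileum replicate 2, 1 was higher there and the median was -0.111. The edgeR fit on the libraries of that contrast alone called none. The difference between the contrasts was called for 15 of the 18, against 34.7% of all genes.

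Genes of colonocyte salt, water and fatty acid transport were mostly lower in the ileum. Of 32 tested, 17 were lower, 4 were higher (Slc26a6, Slc12a2, Kcnn4 and Aqp7) and 11 were not called; the median was -1.98. Their summed level was 1680, 2002 and 1919 CPM in the ileum and 45750, 44030 and 26200 CPM in the cecum, of which Car1 made up the greater part. The butyrate and lactate carrier Slc16a1 had 96.2, 84.6 and 114 CPM in the ileum against 1963, 2489 and 1195 CPM in the cecum (log2 -4.26 ± 0.27, adjusted p = 1.7e-09 by edgeR). The chloride-bicarbonate exchanger Slc26a3 had 20.6, 26.5 and 22.1 CPM against 2245, 3164 and 1975 CPM (log2 -6.74 ± 1.36). Carbonic anhydrase Car2 had 5.84, 16.7 and 13.3 CPM against 1347, 1545 and 1032 CPM (log2 -6.78 ± 0.81). For each of these every ileum library lay far below every cecum library. Lower members also included the epithelial sodium channel subunits Scnn1a and Scnn1b, the sulphate carrier Slc26a2, the sodium-proton exchanger Slc9a2 and the aldosterone effector kinase Sgk1. The sodium-proton exchanger Slc9a3 (234, 300 and 202 CPM against 130, 43.8 and 39.4 CPM) and the chloride channel Cftr were not called.

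Mineral transport fell on the same side. Of 18 genes for iron, calcium, zinc and magnesium, 9 were lower and 1, the heme oxygenase gene Hmox1, was higher, with a median of -1.11. The magnesium channel Trpm6 had 9.87, 8.37 and 12.3 CPM against 224, 433 and 344 CPM (log2 -5.03 ± 0.93). Among 12 claudins, which seal or open the paracellular path, 4 were lower (Cldn3, Cldn7, Cldn8 and Cldn23) and 2 higher (Cldn1 and Cldn2). Claudin 2, which forms a cation and water pore, had 595, 752 and 564 CPM in the ileum and 26.0, 23.3 and 57.2 CPM in the cecum (log2 4.17 ± 0.41, adjusted p = 1.5e-07 by edgeR). It stood against the direction of the sealing claudin Cldn3 (log2 -2.96 ± 0.68).

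Metabolic enzymes were lower as a group. Of 31 conjugation enzymes and carboxylesterases, which make drugs and bacterial products soluble, 24 were lower and 2 higher (Ugt2a3 and Gsta3), with a median of -3.22. The sulfotransferase Sult1a1 had 0.970, 3.19 and 1.16 CPM in the ileum against 462, 756 and 602 CPM in the cecum (log2 -8.42 ± 0.64), and the glucuronosyltransferase Ugt1a7c was 4.17 ± 0.27 log2 units lower. Of 29 cytochrome P450 genes, 15 were lower and 7 higher, with a median of -1.69. Those higher included Cyp1b1, with 43.0, 50.9 and 25 CPM against 0.0795, 0.0837 and 0.461 CPM, and the small-intestinal Cyp3a25 and Cyp3a11. Of 19 genes of ketone body synthesis and peroxisomal oxidation, 16 were lower and 1, Angptl4, was higher, a call lost without WT cecum replicate 1 or 3. Hao2, a peroxisomal hydroxyacid oxidase, had 0.493, 1.06 and 0.077 CPM against 538, 785 and 639 CPM. In these 3 groups the cecum held the higher level for most members, with P450 genes split between the regions. Of 11 genes of steroid metabolism, 4 were higher (Cyp11a1, Cyp11b1, Hsd11b1 and Hsd17b6) and 5 lower (3 without ileum replicate 1 or 3 or WT cecum replicate 2), among them Hsd11b2, which protects the mineralocorticoid receptor from glucocorticoid (log2 -4.15 ± 0.59).

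Regional transcription factors differed in both directions, and only the count of lower members exceeded the share over all genes (28.1% higher and 27.2% lower). Of 24 tested, 6 were higher (Gata4, Gata5, Gata6, Onecut2, Ehf and Maf), 12 were lower and 6 were not called; the median was -0.78. Gata5, an endodermal GATA factor, had 98.2, 93.3 and 99.3 CPM in the ileum and 1.03, 1.95 and 0.431 CPM in the cecum (log2 6.43 ± 0.36, adjusted p = 6.8e-10 by edgeR). Gata4 had 14, 1.19 and 43.1 CPM against 1.06, 2.66 and 0.059 CPM. It was called (log2 3.98 ± 1.25), yet ileum replicate 2 fell within the cecum range, so its groups overlapped, and the call was lost without ileum replicate 3 (adjusted p = 0.0809 by edgeR). The differentiation factor Klf4 had 75.5, 73.4 and 89.8 CPM in the ileum and 1410, 1325 and 812 CPM in the cecum (log2 -3.89 ± 0.43). Hnf4a, a driver of enterocyte genes in both regions, had 451, 534 and 542 CPM against 2163, 2147 and 1219 CPM (log2 -1.86 ± 0.34).

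No nuclear receptor gene of the 18 tested was higher and 13 were lower, with a median of -1.56. The mineralocorticoid receptor Nr3c2, which drives sodium uptake in the distal gut, had 15.4, 22.7 and 18.4 CPM in the ileum and 203, 224 and 160 CPM in the cecum (log2 -3.38 ± 0.25, adjusted p = 8e-09 by edgeR). Pparg, a fatty acid sensor, was 3.71 ± 0.35 log2 units lower. The vitamin D receptor Vdr had 86.3, 95.1 and 76.9 CPM against 674, 779 and 465 CPM (log2 -2.89 ± 0.77). The bile acid receptor Nr1h4 was lower too (log2 -1.38 ± 0.45), though not without ileum replicate 1 or 3 or WT cecum replicate 2, while the dioxin receptor gene Ahr, at 28.4, 30.1 and 31.7 CPM against 25.5, 23.9 and 32.9 CPM, was not called. Between 12 and 14 receptors were lower when single libraries were left out.

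Of 31 Hox genes tested, 22 were lower in the ileum, 3 were higher (Hoxc4, Hoxc5 and Hoxc8) and 6 were not called; the median was -2.10. The size of the difference went with position in the cluster. The 20 genes of paralog groups 1 to 8 had a median of -1.84, with 13 lower and 3 higher, and the 11 genes of groups 9 to 13 a median of -6.91, with 9 lower and none higher. Hoxa10 had 0.034, 0.483 and 0.046 CPM in the ileum and 88.5, 82.5 and 42.1 CPM in the cecum (log2 -8.60 ± 1.11, adjusted p = 3.5e-06 by edgeR). Hoxa13 and Hoxc11, the most posterior members of their clusters that were tested, had no read in any ileum library. Hoxa13 reached 2.38, 2.36 and 0.787 CPM in the cecum and Hoxc11 at most 0.291 CPM.

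The clusters differed. All 5 Hoxd genes were lower, with a median of -5.17, and 9 of 11 Hoxa genes and 6 of 8 Hoxb genes were lower, with medians of -2.31 and -2.02. The Hoxc cluster had a median of 1.24, with its 3 higher members among the lower paralog numbers and its 2 lower members, Hoxc10 and Hoxc11, at the posterior end. Hoxc8 had 6.53, 6.50 and 3.83 CPM in the ileum against 0.318, 0.251 and 0.193 CPM in the cecum (log2 4.48 ± 1.12). The Hoxb genes were uneven among the ileum libraries: Hoxb9 had 39.5, 20.2 and 1.58 CPM against 64.2, 58.5 and 62.4 CPM and was not called, with replicate 3 low for most of the cluster. In the Cdx2/Apc pair, where 9.59% of all genes were higher and 6.6% lower in the ileum, 4 Hox genes were higher (Hoxc4, Hoxc5, Hoxc6 and Hoxc8) and 7 lower. Leaving out single libraries of that pair gave 2 to 5 higher and 5 to 10 lower, with 2 higher without Cdx2/Apc ileum replicate 2 or cecum replicate 2 or 3, and the edgeR fit on its 6 libraries alone called none of 29. All 5 Hoxd genes were lower there too, with Hoxa10 (log2 -2.79) and Hoxa11 (log2 -8.38). The difference between the contrasts was called for 6 Hox genes, among them Hoxa9 and Hoxa10, against 34.7% of all genes.

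**Figure D2:**
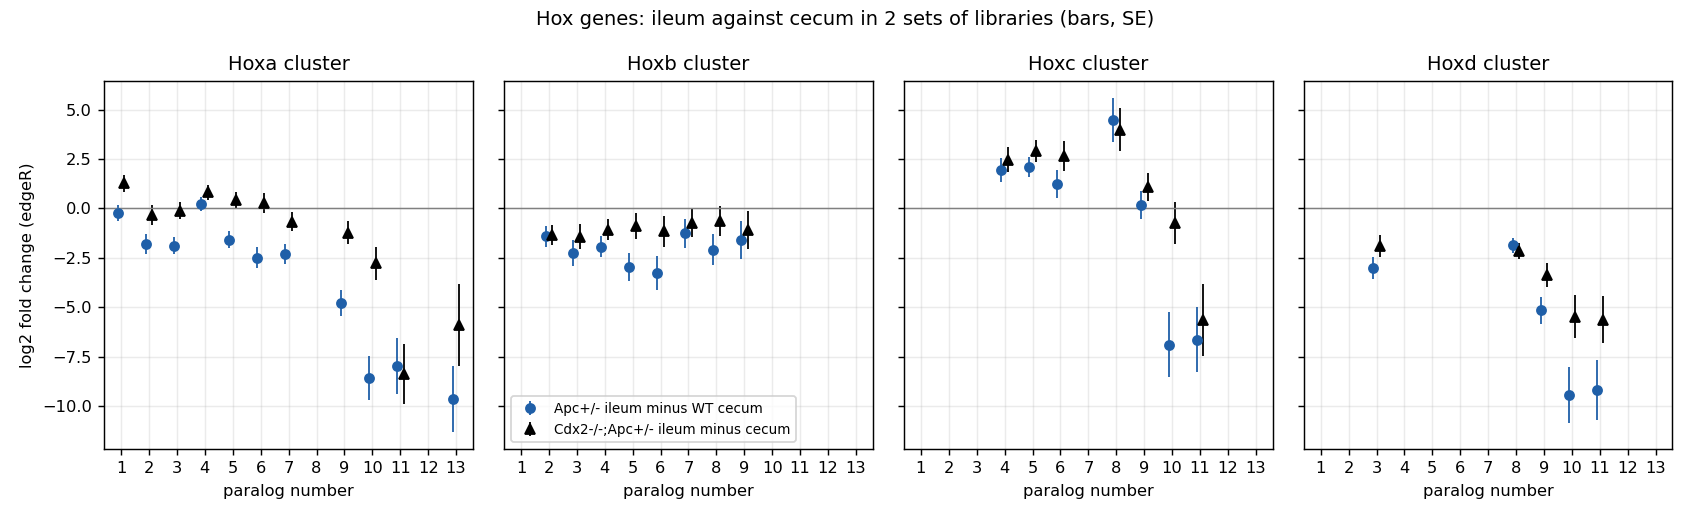
Log2 fold change of the 31 Hox genes by cluster and paralog number; circles are Apc+/- ileum minus WT cecum, triangles are Cdx2/Apc ileum minus Cdx2/Apc cecum, and bars are SE. In Hoxa and Hoxd the lowest values of both contrasts lie at paralog numbers of 10 and 11 or above, and the Hoxc4 to Hoxc9 circles lie above 0.

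Paneth cell genes gave the largest shift of any list. Of 22 tested, 20 were higher in the ileum and none lower, with a median of 9.94, and all 20 had no overlap between the groups. The summed level was 2706, 5334 and 2478 CPM in the ileum and 104, 25.1 and 58.6 CPM in the cecum. Lysozyme 1, Lyz1, had 762, 2602 and 797 CPM against 1.06, 0.523 and 7.37 CPM (log2 8.84 ± 1.41). Matrilysin, Mmp7, which activates pro-defensins, had 321, 287 and 258 CPM against 0.874, 0.711 and 0.030 CPM (log2 9.15 ± 1.17, adjusted p = 3e-06 by edgeR). The phospholipase Pla2g2a had 444, 394 and 414 CPM against 0.026, 0 and 0.059 CPM (log2 13.56 ± 1.73). Ang4 and Mptx1 were not called. Ang4, an angiogenin, had 65.0, 138 and 78.5 CPM against 73.8, 5.77 and 21.5 CPM. Its groups overlapped, and it was the greater part of the summed level in WT cecum replicate 1. The count of 20 higher members was the same whichever single library was left out. Of the 25 markers listed, 24 were matched in the files and 22 tested; 7 of those matched had no read in any cecum library, one of which, Ang6, had none in the ileum either.

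Other secretory lineages shifted less. Of 25 goblet cell genes, 6 were higher, 5 lower and 14 not called, with a median of 0.16. The gel-forming mucin Muc2 had 1765, 1592 and 1537 CPM in the ileum and 894, 468 and 1446 CPM in the cecum and was not called (adjusted p = 0.41 by edgeR). The folding enzyme Agr2 and the lineage factor Spdef were higher, by 1.86 ± 0.39 and 1.44 ± 0.31 log2 units, while the glycan enzymes Gcnt3 and B4galnt2 were lower. Among 6 membrane mucins, Muc3, Muc3a and Muc13 were lower and Muc20 was higher, though not without ileum replicate 1 or WT cecum replicate 2 or 3, and Muc3 had 371, 368 and 414 CPM against 8616, 9186 and 4176 CPM (log2 -4.25 ± 0.86). Of 11 enteroendocrine hormone genes, Gip of the upper small intestine was higher, secretin (Sct) was lower, and 9 were not called; 3 were lower without ileum replicate 2 and 2 without WT cecum replicate 2. Of 18 enteroendocrine regulators and granins, 7 were lower and none higher, led by Ddc and chromogranin A (Chga, log2 -2.57 ± 0.67). Of 18 tuft cell markers, 2 were higher, 1 was lower and 15 were not called, and 6 were lower without ileum replicate 3. Avil, an actin-binding protein used as a tuft cell marker, had 260, 125 and 260 CPM against 8.90, 8.35 and 7.10 CPM, but Trpm5 and Pou2f3, which define the lineage, were at 7.61, 2.90 and 18.5 CPM against 11.8, 9.27 and 9.75 CPM and at 0.800, 0.835 and 1.67 CPM against 2.49, 1.76 and 1.49 CPM.

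All 22 Wnt target genes tested were higher in the ileum, with a median of 3.84, against 28.1% of all genes. Axin2, a feedback inhibitor that reports canonical Wnt activity, had 225, 175 and 211 CPM in the ileum and 11.4, 9.33 and 17.6 CPM in the cecum (log2 3.99 ± 0.44, adjusted p = 6.4e-07 by edgeR). Notum, an enzyme that inactivates Wnt ligands, had 217, 191 and 163 CPM against 0.371, 0.544 and 0.119 CPM (log2 9.16 ± 1.12). Sp5, a transcription factor switched on by β-catenin, had 31.4, 18.2 and 32.2 CPM against 0.583, 0.188 and 0.223 CPM (log2 6.41 ± 0.54). The secreted antagonist Wif1, the nuclear partners Lef1 and Tcf7, the receptor-clearing ligases Rnf43 and Znrf3, and the β-catenin antagonist Nkd1 lay on the same side, none with any overlap between groups. Summed over the list, the ileum had 3337, 3467 and 3018 CPM and the cecum 269, 231 and 413 CPM. Leaving out single libraries left 21 or 22 genes higher.

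Of 19 stem cell markers, 9 of which are also in the Wnt list, 13 were higher and none lower, with a median of 2.51. Lgr5, the receptor that marks crypt base stem cells, had 203, 332 and 125 CPM in the ileum and 2.81, 1.97 and 9.27 CPM in the cecum (log2 5.54 ± 0.77). Smoc2, another crypt base gene, had 157, 271 and 164 CPM against 4.48, 2.57 and 10.6 CPM (log2 5.07 ± 0.53). Olfm4, which marks small-intestinal stem cells, had 38.4, 90.3 and 47.7 CPM against 19.4, 11.5 and 0.104 CPM and was not called (adjusted p = 0.091 by edgeR). All 20 proliferation genes were higher, with a smaller median of 1.60. The topoisomerase gene Top2a had 312, 312 and 400 CPM against 51.4, 39.5 and 106 CPM (log2 2.38 ± 0.27), and the replication helicase subunits Mcm2 to Mcm6 rose by 2.19 to 2.35. All 20 stayed higher whichever single library was left out.

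In the Cdx2/Apc pair, where both tissues are Apc+/-, 18 of the 22 Wnt targets were again higher in the ileum, with a median of 2.23, against 9.59% of all genes. None was called in the edgeR fit on the 6 libraries of that pair alone, where the median was 2.20. Axin2 had 140, 199 and 232 CPM in the Cdx2/Apc ileum and 13.4, 20.4 and 50.2 CPM in the Cdx2/Apc cecum. Notum had 163, 194 and 489 CPM against 0.532, 5.02 and 25.6 CPM. The ileum ranges of the Apc+/- and Cdx2/Apc sets overlapped for both genes, and 2 of the 3 Cdx2/Apc cecum libraries held more Notum than any WT cecum library. Sox9, Cd44, Ephb2 and Ccnd1 were not called in that pair (Sox9 had 114, 91.5 and 144 CPM against 104, 103 and 110 CPM). The difference between the contrasts was called for 16 of the 22 genes, against 34.7% of all genes. Wnt list sums ran from 1133 to 1458 CPM in the Cdx2/Apc cecum, against at most 413 CPM in any WT cecum library. Across the Cdx2/Apc ileum these sums ran from 2542 to 4544 CPM, a span that includes every Apc+/- ileum sum (3018 to 3467 CPM). Of the proliferation genes, 11 were higher in the Cdx2/Apc pair and 1, the mitotic kinase gene Plk1, was lower (98.4, 78.1 and 87.8 CPM against 139, 186 and 162 CPM). The Wnt count in this pair lay between 14 and 18 and the proliferation count between 5 and 11 when single libraries were left out. The proliferation count was 5 without Cdx2/Apc cecum replicate 2, 6 without ileum replicate 3 and 7 without cecum replicate 3. Of the 19 stem cell markers, 8 were higher and 0 lower in this pair, with a median of 0.139. They summed to 6307, 2014 and 3575 CPM in the Cdx2/Apc ileum and 14730, 10760 and 8564 CPM in its cecum, the reverse of the first contrast. The difference between the contrasts was called for 10 of the 19, against 34.7% of all genes.

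**Figure D3:**
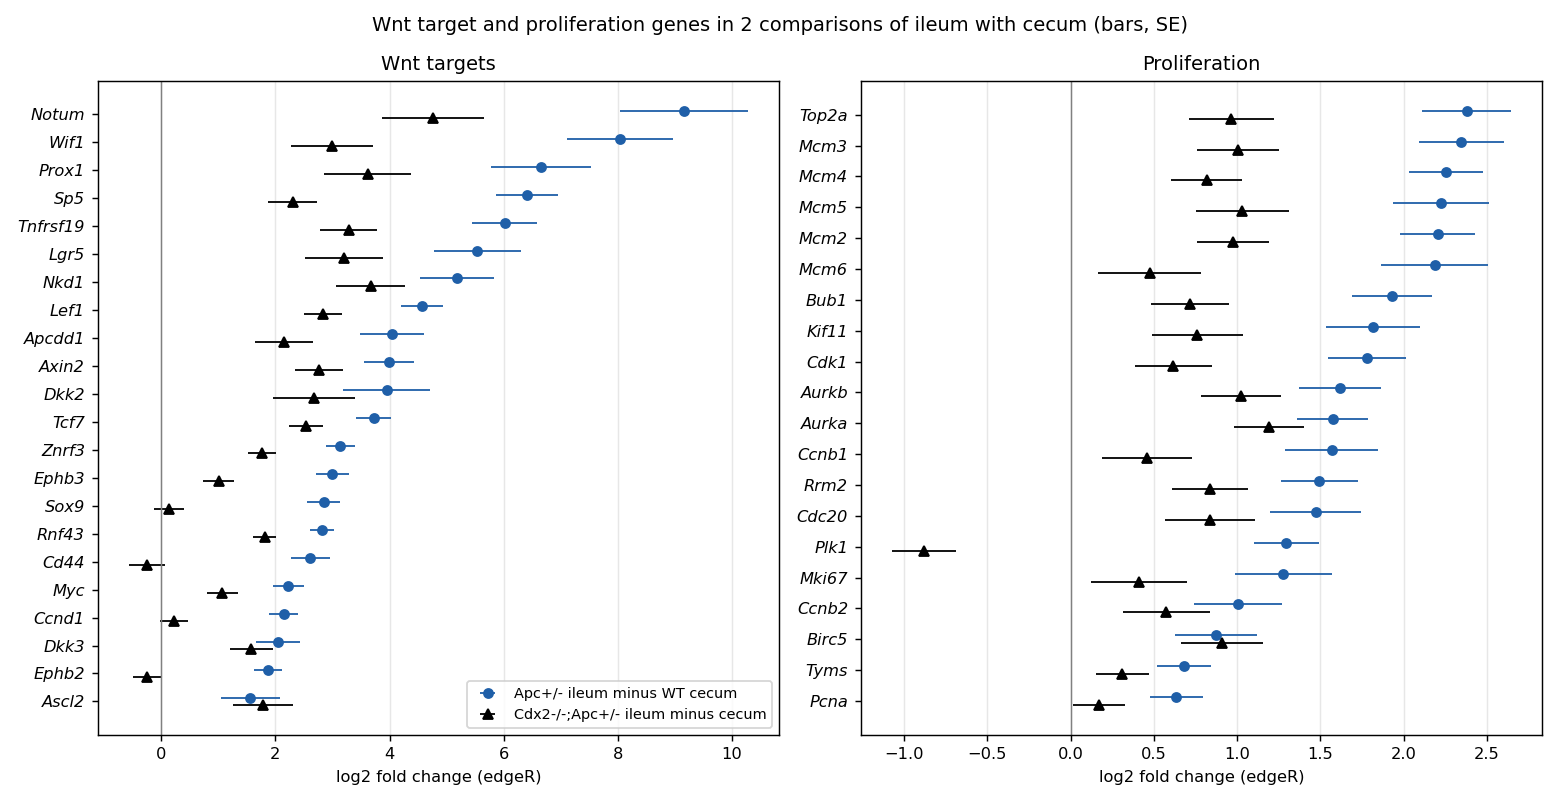
Log2 fold change of 22 Wnt targets and 20 proliferation genes; circles are Apc+/- ileum minus WT cecum, triangles are Cdx2/Apc ileum minus Cdx2/Apc cecum, and bars are SE. All circles lie above 0, and most triangles lie above 0 and to the left of their circle.

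Mucosal defence genes split by kind. Of 21 antimicrobial lectins and related genes, 9 were higher, 5 lower and 7 not called, with a median of 0.80. The lower count was 3 or fewer without any single library but ileum replicate 2, at which it was 4. The bactericidal lectin Reg3g had 3397, 1943 and 1271 CPM in the ileum and 7.07, 9.89 and 10.2 CPM in the cecum (log2 7.92 ± 1.02, adjusted p = 3.4e-06 by edgeR), and its close relative Reg3b had 5035, 4512 and 2024 CPM against 6.86, 12.4 and 25.1 CPM. The siderophore-binding lipocalin Lcn2 had 281, 215 and 158 CPM against 0.503, 0.648 and 1.05 CPM (log2 8.17 ± 0.83). The chemokine Ccl25, which draws T cells to the small intestine, was higher (log2 3.37 ± 0.72), and Ccl28, its counterpart of the large intestine, was lower (log2 -1.71 ± 0.58), a call lost without ileum replicate 1 or 3 or WT cecum replicate 3. Lypd8, which keeps bacteria off the colonic surface, had 2102, 1475 and 1542 CPM against 21730, 30020 and 10950 CPM (log2 -3.61 ± 0.66). Of 13 butyrophilin-like and gasdermin C genes, which act in epithelial T cell selection and cell lysis, 7 were lower and none higher. Gsdmc2 had 30.9, 6.68 and 130 CPM against 2420, 1774 and 1237 CPM. The Reg3 and gasdermin C genes are close copies, and their single values are uncertain.

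Of 20 interferon response genes, 15 were lower in the ileum and none higher, with a median of -2.74. Irf7, a master regulator of the response, had 65.0, 31.1 and 76.1 CPM in the ileum and 1411, 1290 and 469 CPM in the cecum (log2 -4.20 ± 0.99, adjusted p = 0.0014 by edgeR). WT cecum replicate 3 was lowest of its group here and in the summed level of the list (5058, 5036 and 1709 CPM), while the ileum libraries summed to 665, 364.5 and 631 CPM. Between 10 and 16 genes were lower when single libraries were left out. None of the 20 was called either way in the Cdx2/Apc pair, where 9.59% of all genes were higher and 6.6% lower. The median there was -0.372. The difference between the contrasts was called for 4 of the 20, against 34.7% of all genes, so for most members the contrasts were not shown to differ. Of 12 MHC class II genes, 4 were higher, 2 lower (Ctss and H2-Eb1) and 6 not called. None was higher without ileum replicate 1, 1 without WT cecum replicate 1 or 2, and 6 without ileum replicate 2.

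Markers of some non-epithelial tissues moved between the groups as well. Over all genes 28.1% were higher and 27.2% lower in the ileum, and the endothelial and adipocyte counts were not far from these shares. Of 13 smooth muscle markers, 11 were lower and none higher, with a median of -1.65, and no marker was at 0 in any library. They summed to 843, 1235 and 969 CPM in the ileum and to 2866, 1757 and 5228 CPM in the cecum, so WT cecum replicate 3 held the most muscle RNA. Without that library 3 of the 13 were lower, and 6 and 7 were lower without ileum replicates 1 and 3. Of 15 markers of enteric neurons and glia, 7 were lower and 1, Ret, was higher, and 2 were lower without WT cecum replicate 3, 3 without ileum replicate 1 and 4 without ileum replicate 3. These summed to between 53.9 and 56.8 CPM in the ileum and between 25.5 and 113 CPM in the cecum. Of 15 fibroblast and matrix markers, 9 were higher and none lower, led by Pdgfrb (78.7, 91.0 and 81.2 CPM against 22.6, 19.5 and 25.9 CPM) and Grem1, a BMP antagonist made around the crypt base (log2 3.71 ± 0.77). The markers summed to 2764 to 4288 CPM in the ileum and 722 to 1994 CPM in the cecum. In the Cdx2/Apc pair 0 of the 15 were higher and 2 lower, with a median of -0.512, against 6.6% lower over all genes. There the sum was 2268 to 3467 CPM in the ileum and 4628 to 6816 CPM in the cecum. The difference between the contrasts was called for 9 of the 15, against 34.7% of all genes. Of 11 endothelial markers 4 were higher, one of them Prox1, which is also a Wnt target, and 2 were higher without WT cecum replicate 1 or 2. Of 7 adipocyte markers 2 were lower (Plin4 and Cidec), against none without ileum replicate 1 and 1 without ileum replicate 2 or any WT cecum library. The part of these shifts in the gene groups above was not tested.

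Immune cell markers depended on single libraries. Over all genes 28.1% were higher and 27.2% lower. The shares of intraepithelial lymphocyte, macrophage and mast cell markers called higher were near the first of these. Of 10 B cell markers, 9 were higher, but their sum was 198, 19.8 and 20.6 CPM in the ileum against 14.4, 12 and 14.5 CPM in the cecum, and without ileum replicate 1 a single marker was higher. Cd79a, a chain of the B cell receptor complex, had 45.6, 10.5 and 7.06 CPM against 2.12, 1.34 and 3.48 CPM, with replicate 1 highest. Of 8 plasma cell markers 4 were higher and 1 lower (Prdm1), and none was higher without ileum replicate 1, 1 without ileum replicate 2 or WT cecum replicate 2, and 2 without WT cecum replicate 1. Of 11 T cell markers 1, Foxp3, was higher, against none without ileum replicate 1 or WT cecum replicate 1 and 3 without ileum replicate 2 or WT cecum replicate 3. Of 12 intraepithelial lymphocyte markers 3 were higher (Cd244a, Tyrobp and Itgae) and 1 lower (Xcl1), a call lost without any single library but WT cecum replicate 1. Of 15 macrophage and dendritic cell markers 4 were higher (Cd14, Fcgr3, Itgax and Csf1r). This count was 11 without WT cecum replicate 3, 1 without WT cecum replicate 2, and 2 without ileum replicate 1 or WT cecum replicate 1. Of 10 mast cell markers 3 were higher (Tpsb2, Tpsab1 and Cma1), and 6 without WT cecum replicate 3. Of 11 M cell and Peyer patch markers 7 were higher, among them Gp2, an M cell receptor (13.9, 2.15 and 6.50 CPM against at most 0.063 CPM), and 1, Ccl20, was lower. Between 5 and 7 were higher and 1 or 2 lower when single libraries were left out. Spib and Fcer2a are also in the B cell list.

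**Figure D4:**
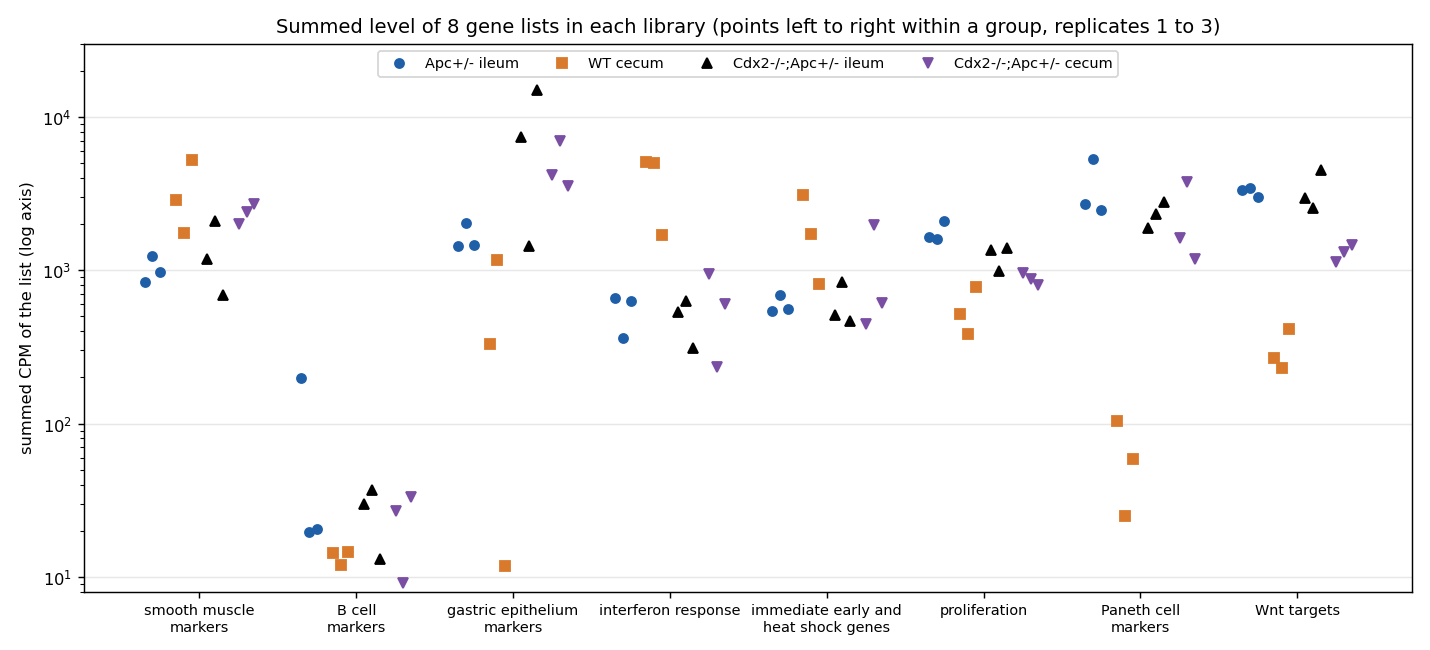
Summed CPM (log axis) of 8 gene lists in each library of the 4 groups; within a group the points run from replicate 1 to 3. Paneth cell, Wnt target and proliferation sums separate Apc+/- ileum from WT cecum, the B cell sum stands out in Apc+/- ileum replicate 1, and the gastric sum ranges widely within WT cecum.

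Markers of neighbouring organs were checked. Of 18 gastric epithelium markers, 5 were higher in the ileum and 9 lower. Those higher were the gland mucin Muc6 (589, 1523 and 580 CPM against 6.28, 8.05 and 2.08 CPM), Ctse, Gkn3, Vsig1 and Anxa10. Those lower included Gkn1, Gkn2, Muc5ac, Tff2, Pgc and Atp4b, all above every ileum library in WT cecum replicates 1 and 2. In WT cecum replicate 3 each of these but Atp4b fell within or below the range of the ileum. Gkn2 had 0.204, 0.111 and 4.67 CPM in the ileum and 86.7, 247 and 1.04 CPM in the cecum, so its groups overlapped. The cecum sums were 330, 1171 and 11.8 CPM, and 2 markers were lower without WT cecum replicate 2 and 5 without ileum replicate 2. Of 11 pancreatic enzyme genes 2 were higher, among them Pnliprp1, and 2 lower, of which none without ileum replicate 3 or WT cecum replicate 1 or 2. Of 7 hepatocyte markers 3 were higher, led by albumin (Alb, 66.2, 63.7 and 36.3 CPM against 0, 0.021 and 0.059 CPM). Of 15 immediate early and heat shock genes, 9 were lower and 2 higher (Ier3 and Egr2). They summed to 545, 689 and 561 CPM in the ileum and 3087, 1716 and 821 CPM in the cecum, and the heat shock gene Hspa1a had 0.187, 3.56 and 0.402 CPM against 190, 82.5 and 8.82 CPM. The cecum libraries differed among themselves in this list, with replicate 1 highest, and its part in the other differences was not tested.

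**Figure D5:**
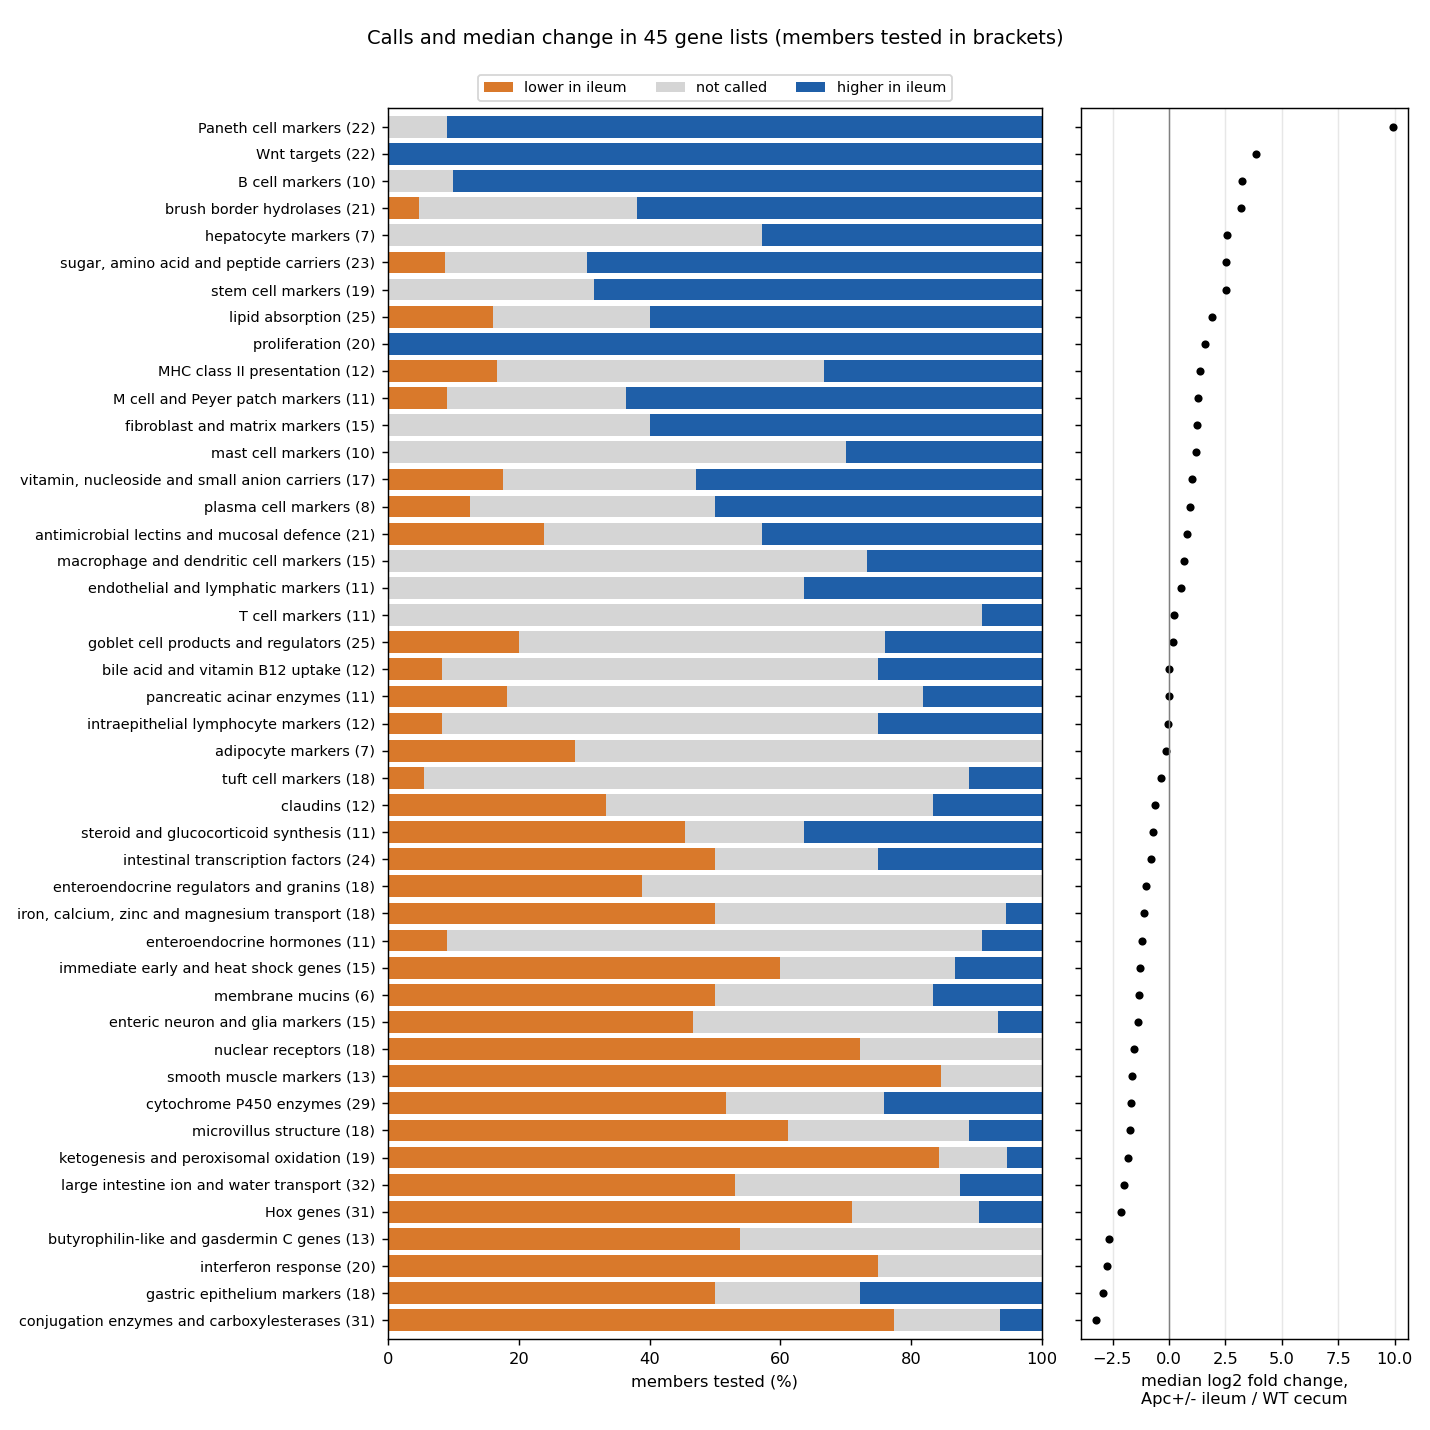
Share of tested members called lower, not called and called higher in the ileum for each of 45 gene lists (left) and the median log2 fold change of each list (right), ordered by that median; the number tested is in brackets. Paneth cell markers lie at the top with 20 of 22 higher, and conjugation enzymes, with 24 of 31 lower, at the bottom.

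The second contrast called 1967 genes higher and 1354 lower in the Cdx2/Apc ileum. Fitted on those 6 libraries alone, edgeR called 0 of 18501 genes, with 4171 at an unadjusted p under 0.05, while DESeq2 on all libraries called 4228. The count also fell from 3321 to 2023 without Cdx2/Apc cecum replicate 1 and to 1620 without replicate 2 of that group. Of the 5770 genes higher in Apc+/- ileum over WT cecum, 1346 (23.3%) were also higher in the second contrast, against 9.59% of all genes, and 173 were lower. These 1346 were 68.4% of the increases of the second contrast, where 28.1% of all genes were higher in the first. Of the 5581 genes lower, 691 (12.4%) were also lower in the second contrast, against 6.6% of all genes, and 115 were higher. These 691 were 51.0% of the decreases of the second contrast, where 27.2% of all genes were lower in the first. The contrasts share no library. The difference between them was called for 7110 genes (34.7%).

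Absorption genes were higher in the Cdx2/Apc ileum than in its cecum largely through 1 library. In that pair 13 of 21 hydrolases, 12 of 25 lipid absorption genes and 15 of 23 carriers were higher, against 9.59% of all genes. Without Cdx2/Apc ileum replicate 2 the counts were 5, 5 and 4, and 1558 of all 20926 genes tested were higher. The median log2 changes were 4.089, 1.992 and 2.915 with that library and 1.177, 0.240 and 1.116 without it. Sis had 89.9, 999 and 43.6 CPM in the Cdx2/Apc ileum and 0.489, 1.62 and 1.90 CPM in the Cdx2/Apc cecum. Slc6a19 had 6.40, 691 and 7.34 CPM against 0.319, 0.278 and 0.797 CPM, and Fabp6 had 17.9, 2016 and 1.34 CPM against 1.57, 2.17 and 1.23 CPM. Replicate 2 was the highest for all 3 genes, and for Fabp6 replicate 3 lay within the range of the cecum. In the Apc+/- ileum every library held at least 72.4 CPM of each of these genes.

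Paneth cell genes separated the regions more fully in the first contrast than in the second. The summed level was 1886, 2339 and 2812 CPM in the Cdx2/Apc ileum and 1631, 3748 and 1194 CPM in the Cdx2/Apc cecum, so the cecum libraries lay on both sides of the ileum range, and all 3 Cdx2/Apc cecum libraries lay above every WT cecum library. Lyz1 made up the greater part of the sum in every Cdx2/Apc cecum library. Of the 22 genes, 10 were higher in the Cdx2/Apc ileum and 1, Nupr1, was lower, against 9.59% and 6.6% of all genes. The median log2 change was 4.10. The count of higher genes was 2 without Cdx2/Apc cecum replicate 1 or 2 and 4 without ileum replicate 2. It was 6 without cecum replicate 3 and up to 14 otherwise. The difference between the contrasts was called for 10 of the 22, against 34.7% of all genes. Lyz1 had 716, 761 and 1507 CPM in the Cdx2/Apc ileum against 1309, 3176 and 699 CPM in its cecum, and its difference between the contrasts was 9.63 ± 1.67 (adjusted p = 0.00026 by edgeR). Slc37a2, which was high in WT cecum alone of these 4 groups, had 3.68, 3.24 and 6.07 CPM in the Cdx2/Apc ileum and 5.66, 2.64 and 11.1 CPM in its cecum, against 2369, 2825 and 1914 CPM in the WT cecum, and its difference between the contrasts was -8.79 ± 0.81. Gata5 had 105, 104 and 111 CPM against 76.4, 79.0 and 73.1 CPM, so both Cdx2/Apc tissues were near the level of the Apc+/- ileum. The Cdx2/Apc and WT cecum differ in Apc genotype, Cdx2 genotype and treatment together, and these cannot be told apart.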

How the data were processed

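Total RNA of dissected gut tissue was made into poly(A)-selected libraries that do not mark strand, per the labels' protocols. Per the submitters' processing notes, reads were handled with CASAVA, TopHat2 2.0.11 and HTSeq 0.5.3p3 on GRCm38; how overlaps and strand were counted, and with which annotation release, is not given in the sources used here. Reads of overlapping or antisense genes therefore cannot be told apart. The authors deposited raw read counts per gene. The 39179 genes were used, and the 5 closing entries that name no gene were kept out (7.45% to 10.3% without a feature, 2.36% to 2.72% ambiguous and 18.5% to 26.2% not unique, as shares of all entries of a library).

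All 24 libraries in 8 groups were fitted with edgeR 4.0.16 (R 4.3.3, limma 3.58.1): TMM factors, the filterByExpr low-count filter, and quasi-likelihood F tests with Benjamini-Hochberg adjustment over 20502 genes. The method was tested on simulated data. Alternatives were other scaling factors, no filter, DESeq2 1.42.0, the groups of a contrast alone, a replicate block, each library left out, ileum replicate 2 as the sole ileum library, and glmTreat against a log2 change of 1. Counting error is small at this depth, and the number of libraries limits precision.

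The comparison and the 45 gene lists were chosen with earlier results of these data known. Named by rule were check genes, the 15 largest called changes each way at a mean of at least 10 CPM without overlap, all Hox genes, the 8 members of every other list with the smallest adjusted p, and the 8 largest differences between contrasts each way; predicted genes, antigen receptor segments and sex-linked genes were left out of the largest changes. Chosen after their values were seen were Ahr, Ang4, Angptl4, Anxa10, Aqp7, Axin2, B4galnt2, Ccl25, Ccl28, Ccnd1, Cd36, Cdhr2, Cftr, Cideb, Cyp3a11, Cyp3a25, Ehf, Ephb2, Fabp1, Fabp2, Gata4, Gata6, Gkn1, Gsta3, Kcnn4, Lgr5, Maf, Mcm6, Mep1a, Mep1b, Mptx1, Muc2, Nkd1, Notum, Nr1h4, Nupr1, Olfm4, Pgc, Plk1, Scnn1b, Sgk1, Slc10a2, Slc12a2, Slc13a2, Slc1a5, Slc26a3, Slc26a6, Slc27a4, Slc2a7, Slc51a, Slc51b, Slc5a1, Slc6a14, Slc6a19, Slc9a3, Tff2, Trpm5, Ugt2a3, Vdr, Vil1, Wif1. Promoter sequences are from RefSeq on GRCm38.p6. A few named genes are not reported here.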

Additional observations from a re-analysis of the deposited data

Results flagged for a closer look

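The ileum-cecum difference itself differed between the Apc+/- versus WT contrast and the Cdx2/Apc contrast for 7110 genes by edgeR's interaction term. The values here are the difference between the contrasts on the log2 scale, first minus second. The 8 largest positive ones were Bpifb5 (11.39), Defa17 (10.50), Defa24 (10.45), T (10.06), Lyz1 (9.63), Pla2g2a (9.54), S100a8 (9.48) and Defa3 (9.16). S100a8, a calprotectin subunit of neutrophils, had 9.75, 13.5 and 4.39 CPM in the Apc+/- ileum, at most 0.159 CPM in the WT cecum, and 17.1, 147 and 32.2 CPM in the Cdx2/Apc cecum. The 8 largest negative ones were Aqp8 (-11.03), Car3 (-9.71), Adamts18 (-9.04), Car1 (-8.82), Slc37a2 (-8.79), Cyp2c55 (-8.40), Hsd17b13 (-8.21) and Slc30a10 (-7.91). Car3 had 3.39, 2.51 and 1.46 CPM in the WT cecum and 0.089, 59.6 and 2.46 CPM in the Cdx2/Apc ileum, so its value rests on Cdx2/Apc ileum replicate 2. Groups of 3 libraries were not tested for single libraries that stand apart.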

How the results depend on the processing

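Counts of called genes in the first contrast stayed within 1.5 times of 11351 under the other scalings, no filter, DESeq2 (11705) and the groups of the contrast alone (9469). With glmTreat 4317 genes were called (2476 higher, 1841 lower), and with ileum replicate 2 as the sole ileum library, assumed to vary like the other groups, 3507 were lower. Leaving out single libraries gave 9746 to 11736 genes (4869 to 6101 higher, 4866 to 5635 lower). In the Cdx2/Apc pair it gave 1620 to 3405 (955 to 2003 higher, 665 to 1402 lower), and 0 genes were called, 0 of them higher and 0 lower, with those groups alone, where edgeR had 4171 genes at an unadjusted p under 0.05 and DESeq2 on all libraries called 4228. For these the cause was not tested, beyond the smaller number of libraries in each fit. Correlations of same-numbered deviations from the group mean were 0.0181, -0.174 and -0.298 in the first contrast, whose groups are from mice of different genotypes. In the second contrast they were 0.226, -0.0732 and -0.0581, and those of differently numbered libraries ran from -0.241 to 0.235. Such values cannot show whether ileum and cecum libraries of the second contrast share an animal, which the labels do not say. The replicate block on the 21 libraries numbered 1 to 3 called 11194, 3056 and, for the difference between contrasts, 6956 genes. Fcer2a, a B cell and Peyer patch marker, reversed from a log2 change of 3.13 to -0.105 with ileum replicate 2 alone and ranged from -0.374 (without ileum replicate 1) to 3.68 when single libraries were left out; the cause was not tested. No other gene named in the text for the first contrast reversed. Over those genes and the others that the naming rule takes, the block lost 4 calls, among them that of Mep1a (adjusted p = 0.0546 by edgeR), and gained 5, and ileum replicate 2 alone lost 112. Upper-quartile scaling moved the median log2 change over all genes from 0.03 to 0.155 and called 6443 genes higher and 4821 lower.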
